A study of Mus musculus with 24 samples.

Results

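The genes described here are 44 whose products carry out or mark mitosis, the division of the nucleus, taken by symbol from a list of cell division genes. All of the 44 were among the 24421 genes of the deposited count table, and 44 of 44 were kept among the 12742 genes tested. The samples were bone marrow mononuclear cells of mice with the Shp2 E76K mutation, which makes the phosphatase Shp2 overactive and occurs in juvenile myelomonocytic leukemia. Every group carried this mutation, the vehicle group included, so no comparison here is with cells of normal genotype. Mice received vehicle, ACP196 (a BTK inhibitor), ACP319 (an inhibitor of the PI3K catalytic subunit p110δ) or both drugs together, each for 3 weeks. Each group had 3 specimens. Numbers 1 to 3 are vehicle, 4 to 6 received ACP196, 7 to 9 received ACP319 and 10 to 12 received both. Age, dose, the promoter behind the mutant allele and whether every number stands for its own mouse are not in the labels, so p-values measure only the spread between these specimens. The labels' title date of specimen 6 has day 30 and that of the other 11 has day 24, and what the date marks is not stated.

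Mitosis begins when CDK1 bound to cyclin B phosphorylates many substrates, chromosomes condense, and microtubules of the spindle attach to kinetochores built on centromeres. A checkpoint holds the cell until every kinetochore is attached. The anaphase-promoting complex then marks cyclin B and securin for destruction, separase cuts the cohesin that joins sister chromatids, and the cell divides by cytokinesis. Most of these genes are transcribed late in the cell cycle. In bone marrow they mark the dividing precursors of blood cells. In bulk RNA, fewer dividing cells and less RNA per dividing cell cannot be told apart.

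Many late cell cycle genes share a pair of promoter elements, the cell cycle genes homology region (CHR, TTTGAA) and the CCAAT box, the latter bound by NF-Y. Of the 44 genes, 38 had a promoter window in RefSeq (assembly GRCm38.p6), which runs from 250 bases before the start site to 50 after it. The letters TTTGAA, read on both strands, occurred in 31 of the 38 windows (81.6%), against 17.9% of 32851 mouse promoter windows of the same length and 12.1% of the 9691 windows of tested genes. CCAAT on either strand occurred in 30 of the 38 (78.9%), against 37.4% and 38.97%. Both occurred in 27 of the 38 (71.1%), against 6.95% and 5.03%. The E2F letters TTTCCCGC, which do not overlap the other 2 motifs, occurred in 1 of the 38 (2.63%), against 1.07% and 2.12%. Birc5, Mad2l1, Nuf2 and Nusap1 had neither TTTGAA nor CCAAT in the window, which says only that these letters are not there. The stretches before the start site are shown for 5 genes, short ones (Ube2c, Cdk1) and long ones (Top2a, Mki67, Kif11). The same letters stand in front of all of them. Of the 5, only Cdk1 passed edgeR's test against vehicle over all specimens below. A link between these letters and the counts was not tested. Capitals mark TTTGAA and CCAAT, which appear as TTCAAA and ATTGG where they lie on the other strand, and each sequence is printed 5′ to 3′ on the gene's own strand, without any base inside RefSeq's gene.
Ube2c, chr2:164769779-164769928, plus strand: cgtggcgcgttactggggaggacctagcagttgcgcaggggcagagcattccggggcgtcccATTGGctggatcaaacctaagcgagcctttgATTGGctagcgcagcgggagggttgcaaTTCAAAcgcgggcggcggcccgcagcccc
Cdk1, chr10:69352913-69353062, minus strand: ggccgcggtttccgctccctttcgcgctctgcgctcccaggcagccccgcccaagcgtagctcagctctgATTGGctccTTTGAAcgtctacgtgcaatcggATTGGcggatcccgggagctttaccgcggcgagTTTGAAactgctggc
Top2a, chr11:99024200-99024339, minus strand: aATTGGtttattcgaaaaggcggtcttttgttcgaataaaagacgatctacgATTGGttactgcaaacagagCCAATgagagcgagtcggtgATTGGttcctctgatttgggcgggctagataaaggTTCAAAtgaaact
Mki67, chr7:135716451-135716529, minus strand: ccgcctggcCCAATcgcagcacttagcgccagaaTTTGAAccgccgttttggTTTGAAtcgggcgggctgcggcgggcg
Kif11, chr19:37376232-37376381, plus strand: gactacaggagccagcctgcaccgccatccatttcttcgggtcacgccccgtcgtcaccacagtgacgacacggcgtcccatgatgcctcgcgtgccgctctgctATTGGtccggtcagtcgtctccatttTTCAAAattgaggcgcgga
Ube2c, Top2a and Kif11 carry the CHR letters on the other strand, and Cdk1 and Mki67 carry them more than once on their own strand. For Mki67 and Top2a only 79 and 140 bases are shown. RefSeq's gene reaches further upstream there than the coordinates given below, which are those of the deposited count table.

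Total counts were 16038577 to 22154833 in 11 specimens and 8993950 in specimen 5 of the BTK inhibitor group. Specimen 5 also had 15.4% of its counts on the ribosomal RNA gene Rn45s, against 0.203% to 0.773% in the others, and it was the lowest of the 12 specimens for 22 of the 44 genes and the highest for 13. The 44 genes took 0.586 to 0.796% of all unscaled counts in vehicle, 0.509 to 0.807% with the BTK inhibitor, 0.576 to 0.7% with the PI3K inhibitor and 0.866 to 0.932% when both were given. Scaled by edgeR's TMM factors, their summed counts per 1000000 were 5380 to 7201, 5898 to 9552, 6516 to 7710 and 7074 to 7659 in the same order. The combination thus overlapped every other group after scaling. Factors were 1.09 to 1.12, 0.55 to 1.16, 0.82 to 1.07 and 1.14 to 1.24. The leukocyte markers Ptprc, Spi1, Cd52 and Coro1a, 4 of 4 tested, summed to 2465 to 5433 counts per 1000000 (CPM) per specimen. Neutrophil markers, 11 of 11 tested, summed to 87199 to 113158 CPM in vehicle, 82606 to 216011 with the BTK inhibitor, 101765 to 199443 with the PI3K inhibitor and 59996 to 76804 with both drugs, although the labels call the cells mononuclear. Gene by gene, 5 of the 11 were above vehicle with the BTK inhibitor (median -0.24), 4 with the PI3K inhibitor (median -0.31, 2 lower by edgeR) and 0 with both (median -0.57). Of tested genes 48.8%, 49.5% and 50.2% were above vehicle in the same order, and 5.82% were lower with the PI3K inhibitor by edgeR. With each library's trend on gene length taken out, as described below, the medians were -0.30, -0.81 and -0.63. Here and below, CPM is the count divided by the library size as scaled with edgeR's TMM factors.

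**Figure D1:**
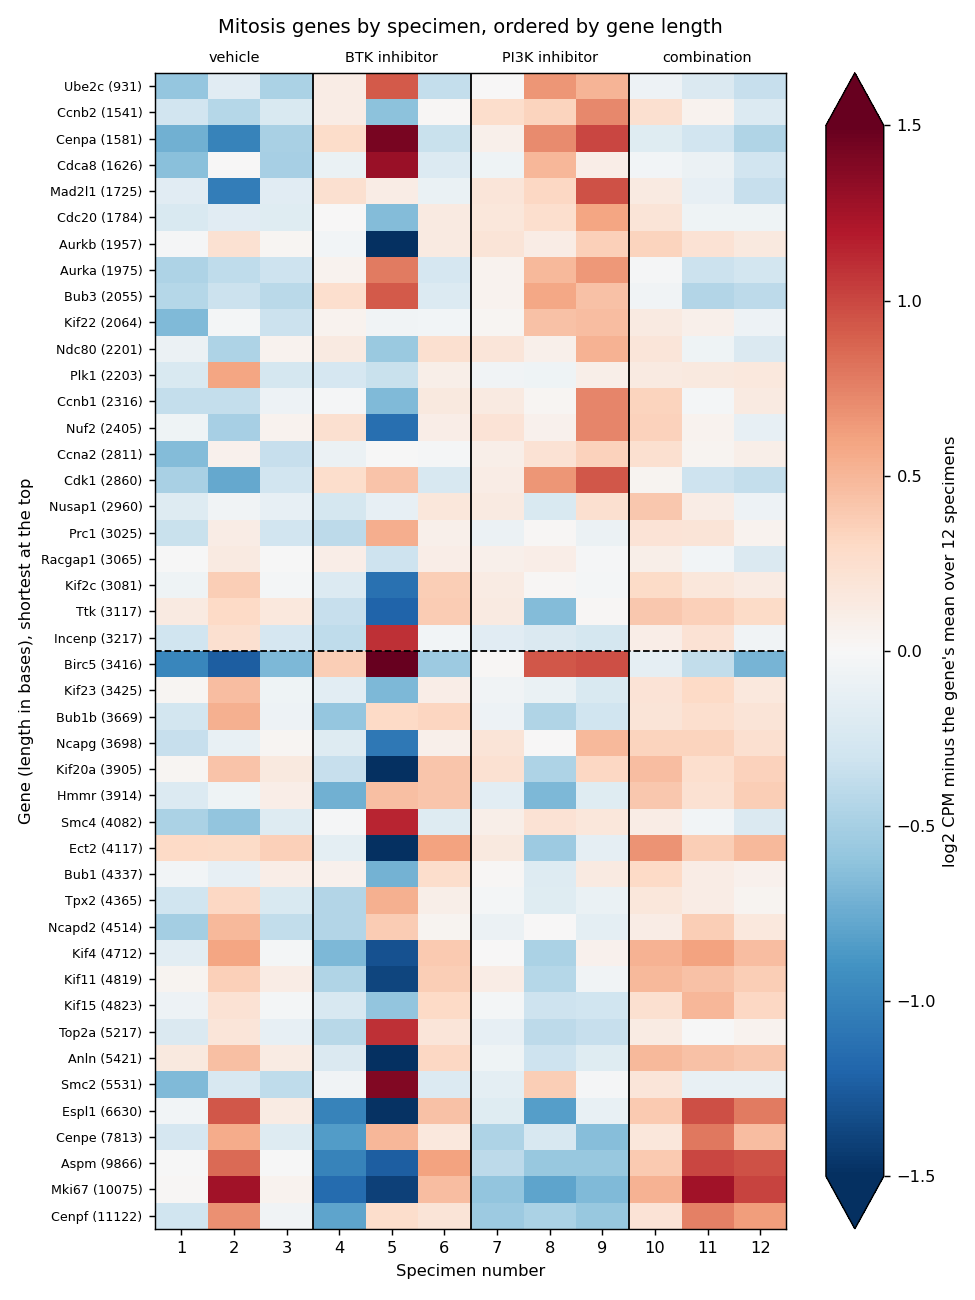
Heat map of the 44 genes (rows, shortest gene at the top, length in bases in brackets) in the 12 specimens (columns), coloured by log2 CPM minus the gene's own mean over the 12 specimens, with one colour for all values past either end of the colour bar; the dashed line separates the shorter 22 from the longer 22. Red prevails among the short genes at the top in specimens 7 to 9 (18 of 22 above the gene's mean in each) and among the long genes at the bottom in specimens 6, 10, 11 and 12 (18 to 21 of 22), and specimen 5 holds the most extreme values in both directions, for Birc5 and Ect2.

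Expression in vehicle, as CPM per kilobase of gene length so that genes can be compared, spanned from Ube2c at 146 ± 22.3 (SD, n = 3) to Aspm at 5.57 ± 2.07. Top2a was next at 116 ± 17.2, then Smc4 at 89.9 ± 13.1, Ccnb2 at 88.4 ± 6.32, Mad2l1 at 81.8 ± 25.1, Cenpa at 79.2 ± 14.2, Ccna2 at 76.4 ± 19.4 and Mki67 at 75.4 ± 40.3, and each of these lay within the summed SDs of its neighbour in the order. Cdk1 stood at 54.5 ± 9.01. Cenpf (6.06 ± 2.28) and Espl1 (8.41 ± 3.24) came just above Aspm at the low end and also overlapped each other. The length divided by is the deposited one, so the order depends on it.

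Against vehicle, the PI3K inhibitor group was split by gene length, with most short mitosis genes above 0 and most long ones below. Cdk1 and Cenpa rose, by 1.11 and 1.36 on the log2 scale, and no other of the 44 genes passed the test at an adjusted p of 0.05. These 2 are 4.55% of the 44, against 10.7% of all 12742 tested genes called in either direction (4.84% higher and 5.82% lower) by the quasi-likelihood test of edgeR. At an unadjusted p under 0.05 there were 12 of 44, or 27.3%, against 35.7% of tested genes. Of these, 10 were higher (22.7%, against 18.1%) and 2, Mki67 and Cenpf, were lower (4.55%, against 17.6%). DESeq2 called 8 of the 44 (18.2%, against 25.3% of tested genes) and limma with voom 14 (31.8%, against 37.4%). Lengths ran from 931 bases (Ube2c) to 11122 bases (Cenpf), and the list was divided at its median of 3316.5 bases, with Incenp (3217) just below and Birc5 (3416) just above. The shorter 22 had a median log2 difference of 0.53 with 18 of 22 above 0. The longer 22 had a median of -0.27 with 5 of 22 above 0, so that 23 of the 44 (52.3%) were above 0, against 49.5% of tested genes. Tested genes in the same length ranges had medians of 0.28 and -0.54, so the direction of the split was that of all genes. Specimens did not overlap between the groups, all higher with the inhibitor, for 16 of the 44 genes (36.4%, against 24.9% of tested genes), 13 of them short. All specimens were lower with the inhibitor for 6 genes, Mki67, Cenpf, Espl1, Aspm, Anln and Ect2 (13.6%, against 26.3%), and these 6 are all among the longer 22. The calls of Cdk1 and Cenpa were lost when any 1 of vehicle specimens 1, 2 and 3, PI3K inhibitor specimens 8 and 9 or combination specimens 10, 11 and 12 was left out. Each of those fits called 0% of tested genes, so the loss was not particular to these 2 genes. Without specimen 5 the count of mitosis genes called was 12 (27.3%, against 33.8% of tested genes) and without specimen 6 it was 10 (22.7%, against 26.2%). Genes of other lists also differed in this comparison by edgeR. Of 12 erythroid genes 3 rose (11 above 0, median 1.11), of 8 monocyte genes 4 fell (1 above 0, median -1.06) and of 22 DNA replication genes 6 rose (20 above 0, median 0.66). Of all tested genes 4.84% rose, 5.82% fell and 49.5% were above 0. With each library's trend on gene length taken out, as described below, these medians were 0.99, -0.83 and 0.51. Summed monocyte markers were 2306 to 2869 CPM in vehicle and 1289 to 1782 with the PI3K inhibitor. The part of erythroid and monocyte cells in the mitosis genes' differences was not tested.

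**Figure D2:**
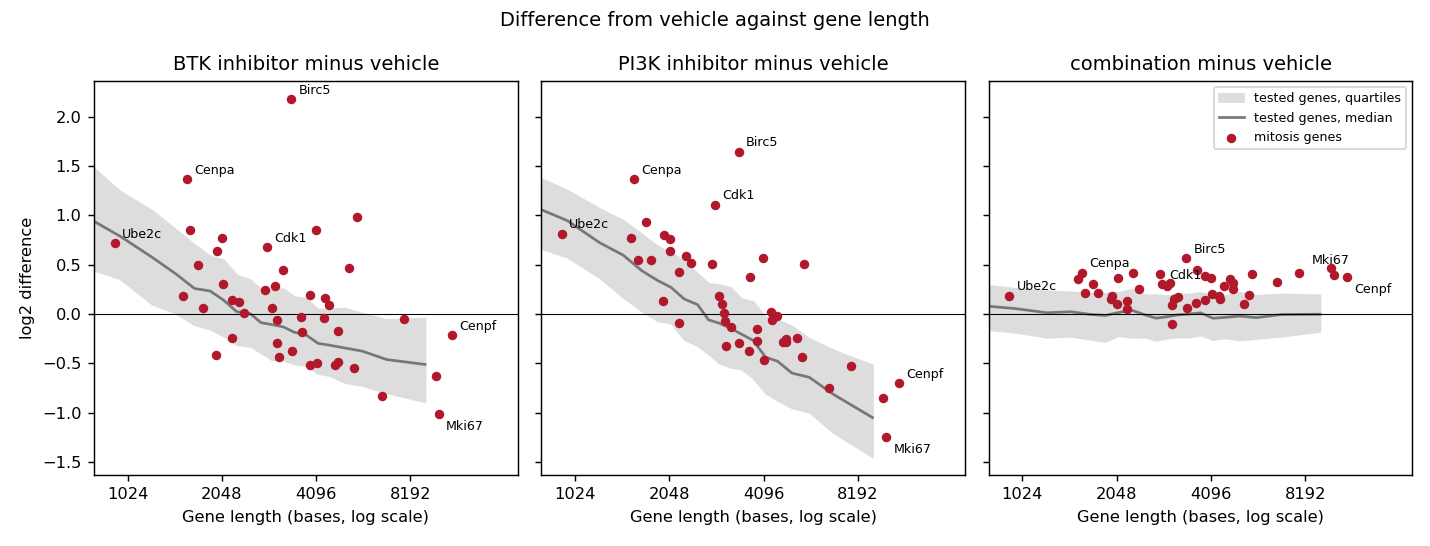
Log2 difference from vehicle (y axis) against deposited gene length in bases (x axis, log scale) for the 44 mitosis genes (points) in the 3 treated groups, 1 panel each, with the median (line) and quartiles (band) of tested genes of similar length. The points descend with length for both single inhibitors along with the band, and for the combination 43 of the 44 lie above 0.

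The kinases and cyclins that start mitosis were all among the shorter 22 and had a median of 0.68 for the PI3K inhibitor minus vehicle, 0.22 for the BTK inhibitor and 0.33 for the combination (6 genes). Cdk1 (chr10:69336635-69352912 in mm10, 2860 bases), the kinase that drives entry into mitosis, had 157, 129 and 181 CPM in vehicle, 265, 296 and 186 with the BTK inhibitor, 237, 349.8 and 421 with the PI3K inhibitor and 227, 178 and 171 with both drugs, listed as here and below in specimen order. All 3 specimens of each single inhibitor exceeded all 3 vehicle specimens, and the combination overlapped vehicle. Its log2 difference from vehicle was 1.11 ± 0.28 (SE) for the PI3K inhibitor with an adjusted p of 0.0407 by edgeR, 0.68 ± 0.28 for the BTK inhibitor (edgeR adjusted p 0.174) and 0.30 ± 0.28 for the combination. Leaving out 1 specimen at a time moved the PI3K inhibitor value of Cdk1 between 0.91 and 1.31, with edgeR adjusted p from 0.0107 to 0.209. Aurka (chr2:172356190-172370570, 1975 bases), the kinase of the spindle poles, had 72.1, 76.7 and 80.2 CPM in vehicle, 104, 170.4 and 83.8 with the BTK inhibitor, 103, 139 and 156 with the PI3K inhibitor and 98.1, 79.6 and 82.1 with both drugs. Its single-inhibitor specimens were again all above vehicle, with differences of 0.80 ± 0.28 for the PI3K inhibitor and 0.64 ± 0.28 for the BTK inhibitor, neither past the test.

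Among the cyclins, both B-type genes were above vehicle in the 2 groups that received the PI3K inhibitor. Ccnb2 (chr9:70407689-70421554, 1541 bases), a B-type cyclin partner of CDK1, had 138, 126 and 145 CPM in vehicle, 183, 110.5 and 171 with the BTK inhibitor, 203, 214 and 279 with the PI3K inhibitor and 199.9, 176 and 147 with both drugs. All PI3K inhibitor specimens and all combination specimens of Ccnb2 were above vehicle, by 0.77 ± 0.26 and 0.36 ± 0.26, without passing the test, and specimen 5 was the lowest of the 12. Ccnb1 (chr13:100778739-100786486, 2316 bases), the main mitotic cyclin, had 87.96, 87.9 and 106 CPM in vehicle, 111, 71.3 and 124 with the BTK inhibitor, 123, 115 and 187 with the PI3K inhibitor and 142, 110.2 and 123 with both drugs. Both groups that received the PI3K inhibitor were above vehicle in all specimens, by 0.59 ± 0.27 and 0.41 ± 0.27. The ratio of Ccnb1 to Ccnb2 CPM stayed between 0.537 and 0.838 over all 12 specimens, specimen 5 included. Ccna2, the cyclin of S phase and early mitosis, differed from vehicle by 0.50 with the PI3K inhibitor and 0.41 with both drugs, and it shares 378 exonic bases with Exosc9 on the opposite strand, so reads there cannot be told apart. Plk1 (chr7:122159437-122169875, 2203 bases), a kinase that acts from centrosome maturation to cytokinesis, had 72.5, 128 and 71.2 CPM in vehicle, 71.5, 67.4 and 90.3 with the BTK inhibitor, 82.4, 81.8 and 90.8 with the PI3K inhibitor and 93.3, 94.8 and 94.8 with both drugs. Vehicle specimen 2 held the highest Plk1 value of all, the other groups lay within its range apart from specimen 5, and the differences of -0.25, -0.09 and 0.06 were all within 1 SE of 0.26.

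With the PI3K inhibitor, chromosome structure genes ran from Mki67 at -1.24, the lowest of the 44, to Smc4 at 0.57 on the log2 scale. Mki67 (chr7:135689788-135716379, 10075 bases) encodes the Ki-67 protein that coats mitotic chromosomes and is the usual stain for proliferation. It had 519, 1228 and 532 CPM in vehicle, 231, 195 and 706 with the BTK inhibitor, 340.2, 297 and 324 with the PI3K inhibitor and 733, 1229 and 1037 with both drugs. All 3 PI3K inhibitor specimens were below vehicle and all 3 combination specimens above the PI3K inhibitor, while BTK inhibitor specimen 6 lay inside the vehicle range and specimens 4 and 5 below it. The Mki67 difference from vehicle was -1.24 ± 0.48 for the PI3K inhibitor (edgeR adjusted p 0.0868), -1.01 ± 0.48 for the BTK inhibitor (edgeR adjusted p 0.207) and 0.40 ± 0.47 for the combination. Vehicle specimen 2 moved all of these: without it the 3 values were -0.71, -0.48 and 0.93, and without BTK inhibitor specimen 6 the BTK value was -1.84 with an edgeR adjusted p of 0.00718. In the same 3 PI3K inhibitor specimens, where Mki67 was below every vehicle value, Cdk1 was above every vehicle value.

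Top2a (chr11:98992947-99024189, 5217 bases), the topoisomerase that untangles chromosomes, had 538, 709 and 576 CPM in vehicle, 470.4, 1335 and 711 with the BTK inhibitor, 573, 475 and 494 with the PI3K inhibitor and 682, 621 and 648 with both drugs. Specimens 4, 8 and 9 were below all vehicle values, specimens 5 and 6 above all of them (6 by little), and the combination lay inside the vehicle range. The Top2a differences were 0.47 ± 0.33, -0.24 ± 0.33 and 0.10 ± 0.33 for the BTK inhibitor, the PI3K inhibitor and the combination, and the first was -0.04 without specimen 5. Smc2 and Smc4, the ATPase pair of condensin, went against the trend of long genes, with differences of 0.99 and 0.85 for the BTK inhibitor and 0.51 and 0.57 for the PI3K inhibitor, none past the test. Both BTK inhibitor values rest on specimen 5, without which they were 0.29 and 0.30. Their CPM ratio, Smc4 to Smc2, was 1.498 to 2.25 over the 12 specimens. The condensin subunits Ncapd2 and Ncapg differed from vehicle by -0.02 and 0.38 with the PI3K inhibitor and 0.28 and 0.44 with both drugs, and Ncapg shares 770 exonic bases with Lcorl on the opposite strand.

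At the centromere, the shortest and the longest gene stood on opposite sides of vehicle with the PI3K inhibitor. Cenpa (chr5:30666886-30674837, 1581 bases), the histone H3 variant that marks the centromere, had 125, 103 and 148 CPM in vehicle, 249, 554 and 164 with the BTK inhibitor, 217, 337 and 413 with the PI3K inhibitor and 181, 169.6 and 151 with both drugs. Every treated specimen exceeded every vehicle specimen. Cenpa rose with the PI3K inhibitor, by 1.36 ± 0.39 with an edgeR adjusted p of 0.0456, and differed by 1.36 ± 0.39 with the BTK inhibitor (edgeR adjusted p 0.136) and 0.42 ± 0.39 with the combination. Without specimen 5 the BTK value was 0.72, and leaving out single specimens gave PI3K values from 1.14 to 1.59 with edgeR adjusted p from 0.00905 to 0.211. Cenpf (chr1:189640614-189688086, 11122 bases), a large kinetochore protein, had 48.5, 96.2 and 57.6 CPM in vehicle, 34.5, 71.9 and 68.6 with the BTK inhibitor, 40.98, 43.2 and 40.2 with the PI3K inhibitor and 68.9, 101 and 92.1 with both drugs. All PI3K inhibitor specimens of Cenpf were below vehicle and below the combination, with a difference from vehicle of -0.70 ± 0.32 (edgeR adjusted p 0.136) that was -0.36 without vehicle specimen 2. The ratio of Cenpf to Cenpa CPM was 0.388 to 0.936 in vehicle, 0.13 to 0.418 with the BTK inhibitor, 0.0972 to 0.189 with the PI3K inhibitor and 0.38 to 0.609 with both drugs.

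The remaining kinetochore genes lay between these. Cenpe, a kinetochore motor with 7813 bases, differed from vehicle by -0.52 with the PI3K inhibitor and 0.41 with both drugs. Ndc80 and Nuf2, which form one coiled-coil dimer that binds microtubules, differed by 0.43 and 0.51 with the PI3K inhibitor, with all specimens above vehicle for both genes. The ratio of Nuf2 to Ndc80 CPM was 1.90 to 2.42 in 11 specimens and 1.41 in specimen 5.

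Among spindle checkpoint genes the 2 shortest were the highest with the PI3K inhibitor, with a median of 0.02 for the PI3K inhibitor over 5 genes. Bub3 (chr7:131560391-131571898, 2055 bases), which brings checkpoint kinases to kinetochores, had 125, 134 and 127 CPM in vehicle, 199.9, 317 and 146 with the BTK inhibitor, 174, 251 and 229 with the PI3K inhibitor and 162, 124 and 128 with both drugs. All single-inhibitor specimens of Bub3 were above vehicle, by 0.77 ± 0.29 and 0.76 ± 0.29 for the BTK and PI3K inhibitors, neither past the test, and the combination overlapped vehicle at 0.10 ± 0.29. Mad2l1 (chr6:66535468-66540991, 1725 bases), the checkpoint protein that inhibits CDC20, had 166, 91.1 and 167 CPM in vehicle, 220.1, 202 and 175 with the BTK inhibitor, 213, 231 and 364 with the PI3K inhibitor and 205, 172 and 147 with both drugs. Vehicle specimen 2 was the lowest of the 12 and every single-inhibitor specimen was above vehicle, with differences of 0.93 ± 0.30 (edgeR adjusted p 0.0566) and 0.50 ± 0.30 for the PI3K and BTK inhibitors. The other checkpoint genes, all longer, were Bub1b (the pseudokinase BUBR1), Bub1 and Ttk (the kinase MPS1), at -0.37, 0.02 and -0.33 with the PI3K inhibitor.

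The trigger of anaphase showed the same contrast within 3 genes. Ube2c (chr2:164769929-164772902, 931 bases), the ubiquitin-conjugating enzyme of the anaphase-promoting complex and the shortest gene of the list, had 119, 159 and 129 CPM in vehicle, 193, 339 and 139.8 with the BTK inhibitor, 179, 282 and 255 with the PI3K inhibitor and 169.9, 153 and 140.3 with both drugs. All PI3K inhibitor specimens were above vehicle, by 0.81 ± 0.32 (edgeR adjusted p 0.0902), and specimen 6 of the BTK inhibitor lay inside the vehicle range. Espl1 (chr15:102296293-102324356, 6630 bases), which encodes separase, had 41.01, 80.5 and 45.9 CPM in vehicle, 20.9, 14.9 and 57.3 with the BTK inhibitor, 37.1, 23.7 and 38.95 with the PI3K inhibitor and 55.4, 82.2 and 72.5 with both drugs. All PI3K inhibitor specimens of Espl1 were below vehicle, by -0.75 ± 0.44 (edgeR adjusted p 0.233), and all combination specimens were above the PI3K inhibitor. The vehicle values behind this difference include specimen 2 at 80.5 CPM, far above the other vehicle specimens. Cdc20, the activator of the complex, differed by 0.54 with the PI3K inhibitor and 0.22 with both drugs, with all specimens of both groups above vehicle, and shares 52 exonic bases with Elovl1 on the opposite strand. The CPM ratio of Mki67 to Ube2c, a long gene over a short one, was 4.13 to 7.72 in vehicle, 0.575 to 5.05 with the BTK inhibitor, 1.06 to 1.90 with the PI3K inhibitor and 4.32 to 8.03 with both drugs.

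Among the 4 genes of the chromosomal passenger complex, Birc5 differed most from vehicle. Birc5 (chr11:117849237-117855743, 3416 bases), which encodes survivin, had 119.5, 99.9 and 148 CPM in vehicle, 304, 1200.1 and 162 with the BTK inhibitor, 238, 450.2 and 459 with the PI3K inhibitor and 215, 183 and 146 with both drugs. Every treated specimen but the combination specimen at 146 CPM was above the highest vehicle value, and specimen 5 stood further above the next highest specimen, as a ratio, than for any other of the 44 genes. Its differences from vehicle were 2.18 ± 0.58 for the BTK inhibitor (edgeR adjusted p 0.136), 1.64 ± 0.57 for the PI3K inhibitor (edgeR adjusted p 0.0671) and 0.56 ± 0.55 for the combination. Without specimen 5 the BTK inhibitor value of Birc5 was 0.93. Birc5 is counted among the longer 22 by its deposited length of 3416 bases, but in GENCODE M21 the transcript that holds its full coding sequence of 420 bases is 947 bases long. Aurkb (chr11:69045643-69051662, 1957 bases), the kinase of the complex, had 80.1, 95.8 and 83.3 CPM in vehicle, 79.2, 25.04 and 89.3 with the BTK inhibitor, 93.1, 87.8 and 104 with the PI3K inhibitor and 103, 95.02 and 90.04 with both drugs. Specimen 5 was the lowest by far and the other 11 lay close together, with differences of 0.14 ± 0.35 for the PI3K inhibitor and 0.15 ± 0.35 for the combination. The ratio of Birc5 to Aurkb CPM was 1.04 to 1.78 in vehicle, 2.56 to 5.13 with the PI3K inhibitor, 1.62 to 2.09 with the combination, and 3.83, 47.9 and 1.81 in the BTK inhibitor specimens. Incenp, the scaffold, and Cdca8, which encodes borealin, differed by -0.13 and 0.55 with the PI3K inhibitor and 0.17 and 0.21 with both drugs.

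**Figure D3:**
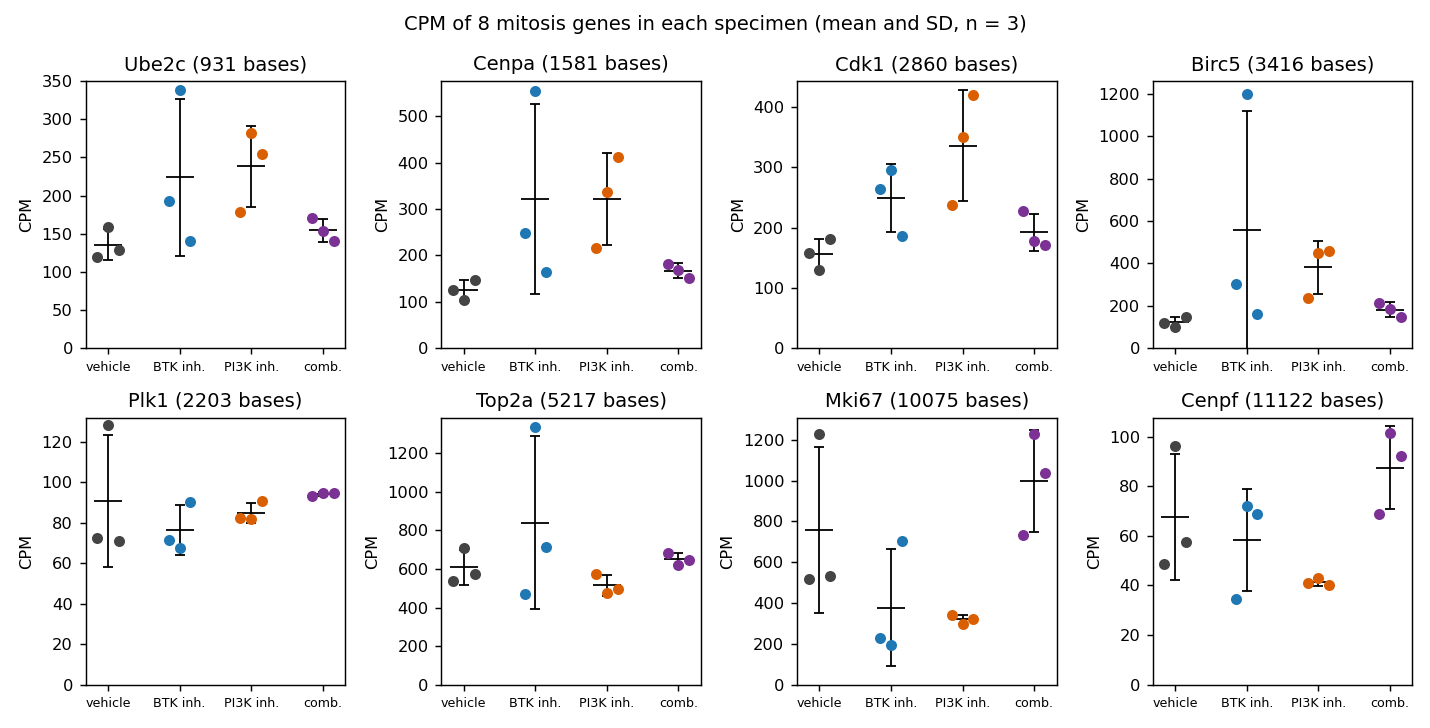
CPM (y axis, linear from 0) of 8 mitosis genes in each specimen (points) by group, with the mean (long bar) and SD (capped bar, n = 3, cut off at 0 for Birc5 with the BTK inhibitor); gene length in bases stands in each title. Cenpa, Cdk1 and Ube2c sit above vehicle in all 3 PI3K inhibitor specimens, Mki67 and Cenpf sit below it, and the BTK inhibitor specimen at 1200.1 CPM stands apart for Birc5.

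Genes of spindle motors and microtubule binding were mostly long and mostly below vehicle with the PI3K inhibitor, with 2 of 9 above 0 and a median of -0.25, and above vehicle with the combination, with 9 of 9 above 0 and a median of 0.31. Aspm (chr1:139454773-139494088, 9866 bases), a spindle pole protein, had 43.2, 78.5 and 43.1 CPM in vehicle, 21.6, 18.4 and 65.8 with the BTK inhibitor, 32.9, 29.3 and 29.2 with the PI3K inhibitor and 56.9, 86.9 and 84.3 with both drugs. All PI3K inhibitor specimens were below vehicle and all combination specimens above the PI3K inhibitor, with differences from vehicle of -0.85 ± 0.42 (edgeR adjusted p 0.167) and 0.47 ± 0.42. Vehicle specimen 2, at 78.5 CPM, again stood far above the other vehicle specimens. The exceptions above 0 with the PI3K inhibitor were the short genes Kif22 (0.64), a motor on chromosome arms, and Nusap1 (0.18), which bundles microtubules and shares 208 exonic bases with Oip5 on the opposite strand. The spindle-separating motors Kif11 and Kif15 stood at -0.28 and -0.25 with the PI3K inhibitor and 0.26 and 0.31 with both drugs, where all specimens of both genes were above vehicle. Kif4, Kif2c, Tpx2 and Hmmr ranged over -0.29 to -0.06 with the PI3K inhibitor and 0.09 to 0.39 with both drugs.

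None of the 6 cytokinesis genes passed the test. With the BTK inhibitor 1 of the 6 was above 0 and the median was -0.44. The lowest there was Anln at -0.55, which was -0.18 without specimen 5. With the PI3K inhibitor 2 of the 6 were above 0 and the median was -0.22. The differences with the PI3K inhibitor ran from -0.47 for Ect2, which activates RhoA at the division plane, to 0.11 for Prc1, which bundles midzone microtubules. Anln, the actin-binding anillin, stood at -0.43 and Kif20a and Kif23, the midzone motors, at -0.15 and -0.29. Kif20a shares 1115 exonic bases with Cdc23 and 229 with Brd8 on the opposite strand. Racgap1, the partner of Kif23 in the centralspindlin complex, was the only one of the 44 genes below vehicle with the combination, at -0.10 ± 0.22.

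With the BTK inhibitor, no mitosis gene passed the test against vehicle and no tested gene did (0%). Of the 44 genes, 9 had an unadjusted p under 0.05 (20.5%, against 24.7% of tested genes). All 9 were higher (against 15.8% higher and 8.97% lower), namely Cdk1, Aurka, Smc2, Smc4, Cenpa, Bub3, Ube2c, Birc5 and Cdca8, while DESeq2 called 2, Cenpa and Birc5 (4.55%, against 8.52% of tested genes), and limma with voom called 8 (18.2%, against 23.4%). Without specimen 5 the values of 8 of the 9 were smaller by over 1.5 times, at 0.30 for Aurka, 0.42 for Bub3, 0.30 for Ube2c and 0.20 for Cdca8 beside those given for Smc2, Smc4, Cenpa and Birc5, while Cdk1 stood at 0.53. The shorter 22 had a median of 0.22 and the longer 22 of -0.18, against 0.16 and -0.34 for tested genes of the same lengths, and 24 of the 44 (54.5%) were above 0, against 48.8%. Specimens did not overlap, all higher, for Cdk1, Aurka, Smc2, Cenpa, Bub3, Mad2l1 and Birc5 (15.9%, against 8.92%), and for none of the 44 were they all lower (against 9.61%). The 3 specimens of this group differed more among themselves than those of the other groups. The median SD within the group over the 44 genes was 0.62 in log2 CPM, against 0.24 in vehicle, 0.24 with the PI3K inhibitor and 0.14 with both drugs. Specimen 6 had 19 of the longer 22 genes above their own 12-specimen mean, and specimen 4 had 2. Without specimen 6 edgeR called 17 of the 44, 9 higher and 8 lower (38.6%, against 29.4% of tested genes), and without specimen 5 it called 0. Since specimen 6 alone bears another title date, the fit without it is also the one within a single date.

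With both drugs together, the mitosis genes stood slightly above vehicle almost without exception, and none passed the test. The genes share these libraries and are not independent, and by specimen the groups overlapped. The median of the 44 genes, as log2 CPM relative to each gene's 12-specimen mean, was -0.23, 0.12 and -0.10 in vehicle. It was 0.20, 0.13 and 0.08 with both drugs. The log2 difference was above 0 for 43 of the 44 genes (97.7%, against 50.2% of tested genes), with medians of 0.32 for the longer 22 and 0.21 for the shorter 22, where tested genes of the same lengths had -0.01 and 0.01. The differences ran from -0.10 to 0.56, and their SD over the 44 genes was 0.14, against 0.61 for the PI3K inhibitor. EdgeR called 0 of the 44 (0% of tested genes), 0 had an unadjusted p under 0.05 (against 4.91% of tested genes, 3.41% higher and 1.51% lower), DESeq2 called 0 (0.173% of tested genes) and limma with voom called 6, all higher (13.6%, against 9.74%). Specimens did not overlap, all higher, for 10 genes, Ccnb1, Ccnb2, Ncapg, Smc2, Cenpa, Cdc20, Kif11, Kif15, Hmmr and Ect2 (22.7%, against 9.32% of tested genes), and for 0 genes were they all lower (against 9.47%). Several sets of cell type markers lay mostly on one side of vehicle in the same comparison, with none called by edgeR. Erythroid markers, 12 of 15 tested, summed to 616 to 2539.5 CPM in vehicle, 1329.6 to 2616 with the BTK inhibitor, 1987 to 3922 with the PI3K inhibitor and 3202 to 3582 with both drugs, with the hemoglobin genes Hba-a1, Hbb-bt and Hbb-bs listed at 0 in all specimens, and 12 of 12 were above vehicle with the combination. Neutrophil markers were above vehicle for 0 of 11 there. Granulocyte-monocyte precursor markers were above vehicle for 0 of 9 (median -0.45) and leukocyte markers for 0 of 4 (median -0.53). Monocyte markers were above vehicle for 1 of 8 (median -0.47) and T and NK cell markers for 1 of 6 (median -0.28). Stem and progenitor markers were above vehicle for 2 of 7 (median -0.10). B-lineage precursor markers went the other way, with 10 of 14 above vehicle (median 0.23). DNA replication genes, which mark cells in S phase, 22 of 22 tested, were above vehicle for 22 of 22 with the combination (median 0.49), and summed to 2657 to 3946 CPM in vehicle and 4333 to 5060.1 with both drugs. The part of the cell types in the mitosis genes' difference was not tested.

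The combination and the PI3K inhibitor differed along gene length in the opposite sense. Of the 44 genes, 0 passed edgeR's test (0% of tested genes), and 11 had an unadjusted p under 0.05 (25%, against 28.7%, of which 14% higher and 14.7% lower), the longer genes Mki67, Cenpe, Cenpf, Espl1, Kif15, Hmmr and Aspm higher and the shorter genes Cdk1, Aurka, Cenpa and Bub3 lower. DESeq2 called 4 (9.09%, against 9.62%) and limma with voom 20 (45.5%, against 41.9%). Specimens did not overlap, all higher in the combination, for 20 genes (45.5%, against 26.5%), 16 of them long, and all lower for 8 genes (18.2%, against 24.6%), 7 of them short, and 26 of the 44 (59.1%) were above 0, against 50.9%. Mki67 differed most, by 1.64 ± 0.48, and Birc5 was at the other end with -1.08 ± 0.56. The combination against the BTK inhibitor gave 0 calls by edgeR (0% of tested genes) with 8 at an unadjusted p under 0.05 (18.2%, against 20.2%), of which Mki67, Ncapg, Espl1, Kif4 and Aspm were higher (against 6.26%) and Cenpa, Bub3 and Birc5 lower (against 13.9%), 0 by DESeq2 (4.53% of tested genes) and 18 by limma with voom (40.9%, against 39.1%). Specimens of these groups did not overlap, all higher in the combination, for 9 genes (20.5%, against 8.07%), and all lower for 0 (against 6.73%), and 29 of the 44 (65.9%) were above 0, against 51.4%. The PI3K inhibitor against the BTK inhibitor gave 0 (0% of tested genes) with 1 at an unadjusted p under 0.05 (2.27%, against 6.21%), Ccnb2, which was higher (against 2.01% higher and 4.2% lower), and 0 by both other tools (0% of tested genes). Specimens did not overlap, all higher, for Ccna2, Ccnb2 and Cdc20 (6.82%, against 3.77%), and all lower for 0 (against 2.46%), and 27 of the 44 (61.4%) were above 0, against 45.5%. Leaving out specimen 6 gave 14 calls between the combination and the BTK inhibitor (31.8%, against 26.8% of tested genes) and 4 between the combination and the PI3K inhibitor (9.09%, against 13.9%), where leaving out specimen 5 gave 10 (22.7%, against 19.3%). These comparisons share specimens with those above and are not independent of them.

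The interaction asks whether the combination equals the sum of the single-inhibitor differences on the log2 scale. It passed edgeR's test for 10 of the 44 genes (22.7%, against 27.6% of tested genes, 12% higher and 15.6% lower). At an unadjusted p under 0.05 there were 15 (34.1%, against 43.1%), DESeq2 called 11 (25%, against 35.7%) and limma with voom 24 (54.5%, against 52.8%). In 6 genes the combination was below the sum: Birc5 (-3.26 ± 0.80), Cenpa (-2.31 ± 0.56), Cdk1 (-1.48 ± 0.40), Bub3 (-1.43 ± 0.41), Ube2c (-1.35 ± 0.45) and Aurka (-1.26 ± 0.40). In 4 it was above the sum: Mki67 (2.65 ± 0.68), Aspm (1.95 ± 0.60), Espl1 (1.91 ± 0.62) and Cenpf (1.29 ± 0.45). The first 6 were each higher with both single inhibitors than with the combination, the other 4 were each lower, and Birc5 is the only one of the 10 whose place in the length split goes against its direction. The longer 22 had a median of 0.73 and the shorter 22 of -0.37, against 0.84 and -0.43 for tested genes of the same lengths. Without any 1 of vehicle specimen 2, PI3K inhibitor specimens 8 and 9 and combination specimens 11 and 12 the count was 0 (against 0% to 0.00774% of tested genes). Without BTK inhibitor specimen 4 the count was 6 (13.6%, against 16.7% of tested genes), and without specimen 6 it was 22 (50%, against 44%). The test for any difference among the 4 groups called 0 of the 44 (0% of tested genes), with 11 at an unadjusted p under 0.05 (25%, against 30.6%), 6 by DESeq2 (13.6%, against 24.6%) and 25 by limma with voom (56.8%, against 52.6%).

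Each specimen had its own slope of expression on gene length, and the mitosis genes followed it. The slope of log2 CPM, relative to each gene's mean, per doubling of length over all tested genes was 0.15, 0.40 and 0.12 in vehicle, -0.28, -0.35 and 0.18 with the BTK inhibitor, -0.10, -0.37 and -0.38 with the PI3K inhibitor, and 0.09, 0.25 and 0.29 with the combination. Over the 44 mitosis genes it was 0.12, 0.43 and 0.12, then -0.37, -0.31 and 0.19, then -0.18, -0.39 and -0.45, and 0.12, 0.37 and 0.36, with the sign of the all-gene slope in every specimen. The slope was below 0 in all 3 PI3K inhibitor specimens and in specimens 4 and 5, and above 0 in the vehicle and combination specimens and in specimen 6. Across the 44 genes, which share these libraries and are not independent, the log2 difference had a Spearman correlation with length of -0.51 for the BTK inhibitor and -0.77 for the PI3K inhibitor, and of 0.23 for the combination and 0.72 for the interaction. Treatment and the length slope of a library cannot be told apart for the PI3K inhibitor, since all 3 of its slopes lie below all 3 of vehicle.

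**Figure D4:**
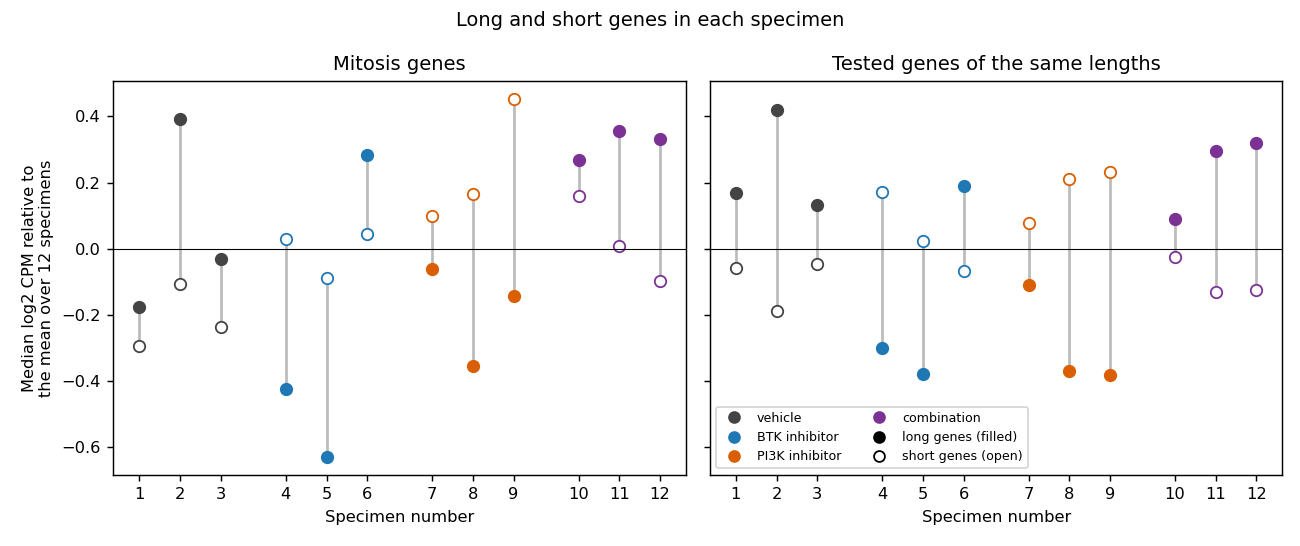
Median log2 CPM relative to each gene's 12-specimen mean (y axis) of the longer genes (filled) and shorter genes (open) in each specimen (x axis), joined by a line, for the 44 mitosis genes (left) and all tested genes in the same length ranges (right); colours mark the groups. The filled point lies below the open one in specimens 4, 5, 7, 8 and 9 and above it in the other 7, in both panels.

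With each library's trend on gene length taken out by an offset, a natural spline of log2 length fitted over all tested genes, the contrast between long and short mitosis genes largely closed. The mitosis genes shared that trend, so this closing follows largely from the offset itself. The offset takes out any difference along gene length, whatever its source. With the PI3K inhibitor the longer 22 had a median of 0.22 and the shorter 22 of 0.27, 36 of the 44 were above 0, and the sign changed for 17. The Spearman correlation of the difference with length was -0.09. Mki67 went from -1.24 to -0.23, Cenpf from -0.70 to 0.33, Aspm from -0.85 to 0.13 and Ube2c from 0.81 to -0.14. Cdk1 (1.19), Cenpa (0.88), Smc2 (1.13), Smc4 (0.92) and Birc5 (1.86) were the 5 highest. EdgeR called 0 of the 44 for the PI3K inhibitor and 0 for the interaction in this fit, with 9 at an unadjusted p under 0.05 in each. It called 0% of tested genes for the PI3K inhibitor and 0.00785% for the interaction. Interaction values stayed as large for Birc5 (-3.87) and Cdk1 (-1.78), were nearer 0 for Bub3 (-1.23), Cenpa (-1.52) and Mki67 (1.12), and changed sign for Ube2c (0.31) and Cenpf (-0.35). Without specimen 5 it called 8 for the PI3K inhibitor, all higher, Cdk1, Aurka, Ncapg, Smc2, Smc4, Cenpa, Bub3 and Birc5 (18.2%, against 18.6% of tested genes), and 2 for the interaction, Cdk1 and Birc5 (4.55%, against 4.16%). For the combination the offset changed little, with medians of 0.31 and 0.17 and 43 of the 44 genes above 0 as without it.

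**Figure D5:**
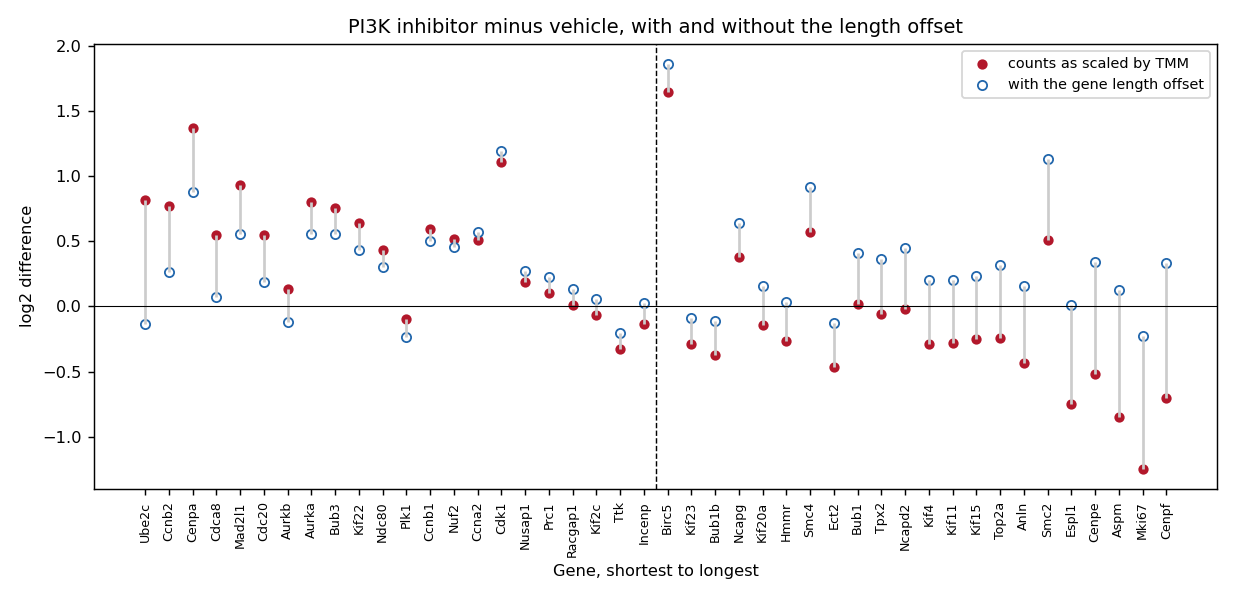
Log2 difference between the PI3K inhibitor and vehicle (y axis) for each mitosis gene (x axis, shortest at the left), from counts as scaled by TMM (filled) and with the gene length offset (open), joined by a line; the dashed line separates the shorter 22 from the longer 22. Open points mostly lie below filled ones at the left and lie above them for all of the longer 22, and 36 of the 44 open points are above 0.

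Other genes of mitosis, 117 of 117 tested and chosen by function, were split by length in the same way. With the PI3K inhibitor 14 rose and 1 fell by edgeR, 12.8% of the 117, against 10.7% of tested genes (4.84% higher and 5.82% lower). Among the 72 in the shorter length class 13 rose and 0 fell with a median of 0.56, and 64 were above 0. Among the 45 longer ones 1 rose and 1 fell with a median of -0.46, and 7 were above 0. Tested genes in the length ranges of the 44 had medians of 0.28 (66.3% above 0) for the shorter range and -0.54 (21.1% above 0) for the longer. Calls among tested genes were not counted by length class, so the 13 have no background of like length. Cenpk and Cenpp, kinetochore subunits of 2192 and 1054 bases, had the smallest p among those that rose, by 1.74 and 1.31, and Lin54, a subunit of the complex that binds the CHR, fell by 0.85. With the combination 0 of the 117 were called against vehicle by edgeR (0% of tested genes). Of the 117, 104 were above 0, with a median of 0.23, against 50.2% of tested genes above 0. The interaction was called for 12 higher, among them Foxm1 (2.04), which activates late cell cycle genes, and E2f7 (1.498), and for 23 lower (together 29.9%, against 27.6% of tested genes), among them Cenph (-2.48) and Anapc15 (-1.91). With the length offset the medians for the PI3K inhibitor were 0.01 for the 45 longer and 0.32 for the 72 shorter genes.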

How the data were processed

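RNA of 12 specimens was made into cDNA with SMART-Seq v4 and tagmented with Nextera XT, per the labels' protocols, a preparation that keeps no strand. Per the submitters' processing notes, STAR, featureCounts and mm10 were used, whose versions and strand settings were not given in the sources used here. Whole-number counts per gene were deposited by the authors, with the gene length in bases in another column. The table has 1 count column per specimen for 24 listed samples, and 0 columns of per-sample values were left unused. Total counts ran from 8993950 to 22154833 per specimen, and the precision of the differences also rests on the spread between specimens.

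Genes were kept by filterByExpr (minimum count 10, minimum total 15), scaled by TMM and tested with edgeR's quasi-likelihood test (4.0.16, R 4.3.3) on all 12 specimens, with Benjamini-Hochberg adjustment over 12742 genes and a threshold of 0.05, over 6 pairs of groups, the interaction and any difference. SE is the log2 difference divided by the square root of the test's F. The 44 genes and the other lists were chosen with earlier results of these data known. Genes named with all values were the 12 with the smallest p among the 4 groups, the 3 longest and 3 shortest, up to 6 called per comparison, and 7 fixed ones. Other mitosis genes were named up to 2 per direction. Alternatives were RLE and upper-quartile scaling, DESeq2 (1.42.0), limma (3.58.1) with voom and quality weights, other filters, only the groups compared, each specimen left out, a gene length offset (spline, 5 degrees of freedom), Rn45s left out and other length splits, of which the coding-length split was chosen after seeing the data. Scripts were tested on simulated data. Replicates of a group were distinct libraries (chi-square of their counts per degree of freedom 20.5 to 633).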

Additional observations from a re-analysis of the deposited data

Results flagged for a closer look

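EdgeR's test of the interaction over all 12 specimens, in which the effect of one inhibitor depends on the presence of the other, passed for 10 of the 44 mitosis genes (22.7%), a share below the 27.6% of all tested genes. Leaving out any 1 of vehicle specimen 2, PI3K inhibitor specimens 8 and 9 and combination specimens 11 and 12 gave 0 calls among the 44. Those fits called 0% to 0.00774% of tested genes. The log2 interaction and its adjusted p were -3.26 (0.0202) for Birc5, -2.31 (0.0202) for Cenpa, -1.48 (0.0216) for Cdk1, -1.43 (0.0248) for Bub3, -1.35 (0.0405) for Ube2c and -1.26 (0.0338) for Aurka. For these 6 the single inhibitors were above vehicle and the combination was nearer to it. They were 2.65 (0.0203) for Mki67, 1.95 (0.0318) for Aspm, 1.91 (0.0382) for Espl1 and 1.29 (0.0499) for Cenpf, by edgeR. For these 4 long genes the single inhibitors were below vehicle and the combination above it. With the gene length offset 0 of the 10 were called and 0.00785% of all tested genes, while the values were -3.87 for Birc5, -1.78 for Cdk1, -1.52 for Cenpa, -1.23 for Bub3, -0.97 for Aurka, 1.12 for Mki67, 0.74 for Espl1, 0.47 for Aspm, 0.31 for Ube2c and -0.35 for Cenpf.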

How the results depend on the processing

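Scaling by RLE or upper quartile, other filters on low counts and leaving out Rn45s left the number of mitosis genes called in every comparison within 1.5 times of that reported. DESeq2 called 2 for the BTK inhibitor minus vehicle, 8 for the PI3K inhibitor minus vehicle, 4 for the combination minus the PI3K inhibitor and 6 for any difference, where it called 8.52%, 25.3%, 9.62% and 24.6% of tested genes. Limma with voom called 8, 14, 6, 18, 20, 24 and 25 for the BTK inhibitor, PI3K inhibitor and combination minus vehicle, the combination minus the BTK and PI3K inhibitors, the interaction and any difference, where it called 23.4%, 37.4%, 9.74%, 39.1%, 41.9%, 52.8% and 52.6% of tested genes. A fit of only the groups compared called 10 for the PI3K inhibitor minus vehicle and 16 for the combination minus the PI3K inhibitor (32.9% and 32.6% of tested genes). The gene length offset called 0 for the PI3K inhibitor minus vehicle (medians 0.22 for the longer 22 and 0.27 for the shorter 22) and 0 for the interaction (0% and 0.00785% of tested genes). With the offset and without specimen 5 these were 8 (medians 0.22 and 0.27) and 2 (18.6% and 4.16%). Ube2c and Cenpf reversed in the interaction, to 0.31 and -0.35 with the offset and to 0.43 and -0.14 with the offset and without specimen 5. The cause was not tested.

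Leaving out each specimen in turn gave 0 to 17 calls for the BTK inhibitor minus vehicle, 0 to 12 for the PI3K inhibitor minus vehicle, 0 to 14 for the combination minus the BTK inhibitor, 0 to 10 for the combination minus the PI3K inhibitor, 0 to 22 for the interaction and 0 to 11 for any difference. At those highest counts 29.4%, 33.8%, 26.8%, 19.3%, 44% and 31.8% of tested genes were called. The median of the shorter 22 with the PI3K inhibitor ranged from 0.37 to 0.61, and the medians of both length classes against vehicle kept their sign in all 12 fits of each comparison. Splitting the list at the median tested length, by its longest against its shortest 15 genes or by coding length changed no sign of a median. No paired analysis was possible because the groups share no replicate number. With 3 specimens a group, the low depth of specimen 5 and the length slope of each library, what these counts can resolve is limited.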
